A study of Homo sapiens with 6 samples.

Results

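Chemokines are small secreted proteins that steer the migration of leukocytes along a concentration gradient. This account follows 8 of their genes in the human melanoma cell line A2058, an established line: CXCL1, CXCL2, CXCL3, CXCL5, CXCL6, CXCL8, CCL2 and CCL20. The genes were taken by name with all their probe sets that the platform's annotation gives to a single gene, which were 13. They were selected on earlier results of these same data, in which chemokine genes stood low in the TET2WT line against Mock and low at high glucose. Their levels in those comparisons are therefore given as a description and without a p-value. Of the 8 genes, 6 had a probe set at or above the low-value level described below and belonged to the 14428 genes tested, while CXCL5 and CXCL6 did not.

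Total RNA was measured on 6 Affymetrix arrays from 3 A2058 lines, one overexpressing the construct TET2WT, one overexpressing the construct TET2M, called Mut in another label, and a Mock line. TET2 oxidises 5-methylcytosine, the methylated base of CpG sites. All cells spent 7 days in DMEM whose glucose was either high, at 4.5 g/L, or normal, at 1 g/L, with 1 array per line and concentration. Whether a line is a pool or a clone, and what drives its construct, is not given in the sources used here.

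Among them, the CXC chemokines with a glutamate-leucine-arginine motif before the first cysteine, CXCL1, CXCL2, CXCL3, CXCL5, CXCL6 and CXCL8, bind the receptors CXCR1 and CXCR2 and attract neutrophils. CCL2 attracts monocytes through CCR2, and CCL20 attracts CCR6-bearing lymphocytes and dendritic cells. Transcription of these genes is induced by NF-kB, downstream of interleukin-1 and tumour necrosis factor, and their mRNAs are short-lived. Melanoma cells are known to secrete CXCL1 and CXCL8, which act on the tumour cells themselves as well as on leukocytes and vessels.

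Promoter sequences are shown because NF-kB-type letters stood both in promoters of members above the low-value level and in those of CXCL5 and CXCL6 below it, though not the same letters in each. The RefSeq promoter table (GRCh38.p14, 300 bases, of which 250 lie before and 50 after the start) held 7 of the 8 genes. Each line runs 5′ to 3′ on the gene's own strand from base -120 to base -21 relative to the transcription start. Capitals mark matches to the NF-kB consensus (on either strand, merged where they overlap), to its 9-letter form GGAATTTCC, or to TATAAA. The windows lie on the plus strand for CXCL1 (chr4:73869273-73869372), CXCL6 (chr4:73836558-73836657), CXCL8 (chr4:73740449-73740548) and CCL20 (chr2:227813722-227813821). They lie on the minus strand for CXCL2 (chr4:74099216-74099315), CXCL3 (chr4:74038710-74038809) and CXCL5 (chr4:73998698-73998797).
CXCL1: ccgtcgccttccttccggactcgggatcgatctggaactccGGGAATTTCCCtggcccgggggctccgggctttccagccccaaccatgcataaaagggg
CXCL2: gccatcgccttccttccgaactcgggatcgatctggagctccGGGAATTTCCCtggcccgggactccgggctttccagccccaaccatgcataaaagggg
CXCL3: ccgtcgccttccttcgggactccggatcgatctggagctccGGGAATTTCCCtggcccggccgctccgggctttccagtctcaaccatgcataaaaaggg
CXCL8: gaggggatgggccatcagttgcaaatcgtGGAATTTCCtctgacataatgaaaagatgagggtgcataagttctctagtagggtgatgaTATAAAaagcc
CCL20: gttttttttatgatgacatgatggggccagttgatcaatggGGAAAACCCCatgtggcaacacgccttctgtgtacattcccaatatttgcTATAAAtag
CXCL5: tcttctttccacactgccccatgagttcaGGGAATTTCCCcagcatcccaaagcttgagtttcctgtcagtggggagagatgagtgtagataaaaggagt
CXCL6: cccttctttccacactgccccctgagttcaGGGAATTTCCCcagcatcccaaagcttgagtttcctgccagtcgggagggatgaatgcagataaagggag

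The form GGAATTTCC stood in 6 of these 7 promoters, and in 0.461% of the 35116 promoters of the table. CXCL1, CXCL2, CXCL3, CXCL5 and CXCL6 held it inside a palindrome that matched the NF-kB consensus on both strands, CXCL8 held the 9 letters without a consensus match, and CCL20 had a consensus match on the opposite strand only. The consensus was found in 6 of the 7 promoters and in 5.91% of the table, and it overlaps the 9-letter form where both were found. The leftmost base of the match lay between -91 and -77 in all 7 promoters. The AP-1 letters TGANTCA were found in the CXCL8 promoter alone of the 7 (7.71% of the table), at -137. TTGCNNAA, a C/EBP-type letter string, was found in CXCL2 alone of the 7 (10.5%), and TATAAA in CXCL8 and CCL20 (11.5%). All strings were searched on both strands, and a match is a description of letters and not a bound site.

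**Figure D1:**
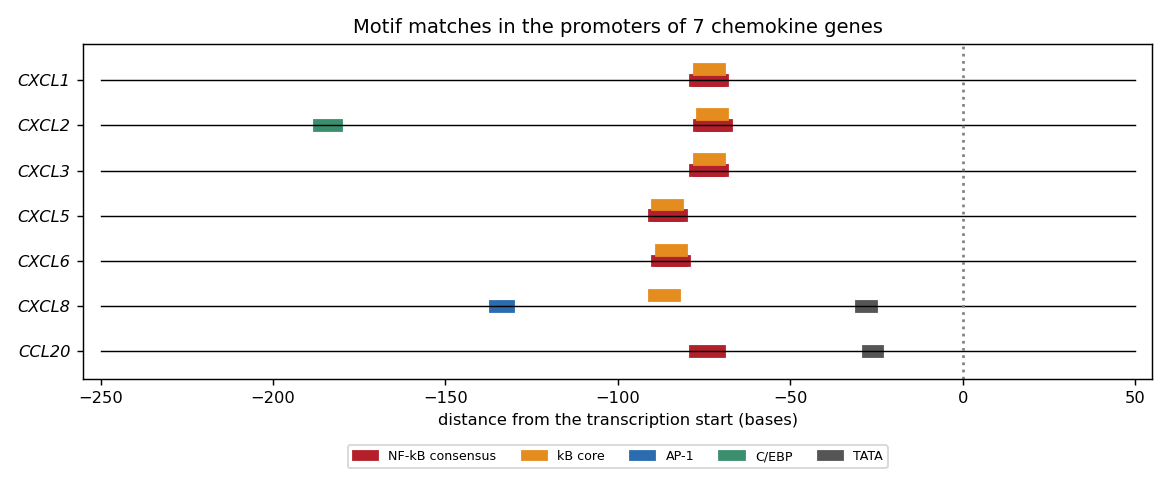
Positions of motif matches in the promoters of 7 chemokine genes, from 250 bases before to 50 bases after the transcription start (dotted line); coloured boxes are matches on either strand, with GGAATTTCC (kB core) drawn just above the overlapping NF-kB consensus. A match to 1 of these 2 lies between -91 and -77 in all 7 promoters, including those of CXCL5 and CXCL6.

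By sequence the promoters of CXCL1, CXCL2 and CXCL3 formed one group and those of CXCL5 and CXCL6 another. CXCL1 and CXCL3 shared 84.7% of 300 bases in a global alignment, and CXCL5 and CXCL6 shared 83.7%, whereas CXCL8 and CCL20 shared between 54.7% and 60.3% with any other of the 7. CXCL2 was 80.0% identical to CXCL1. CpG dinucleotides, the sites at which TET enzymes act on methylated cytosine, numbered 22 in CXCL1, 22 in CXCL2 and 24 in CXCL3. The other promoters held fewer, with 9 in CXCL5, 8 in CXCL6, 4 in CXCL8 and 3 in CCL20, against a median of 14 over the table. DNA methylation was not measured here, and its part in the chemokine differences was not tested.

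The values are the authors' log2 probe set values, deposited with nearly 1 distribution on all 6 arrays. Differences below are on the log2 scale, ± is limma's standard error, and a gene passed where limma's adjusted p over all 14428 genes was under 0.05. A gene was tested where its probe set with the highest mean reached the 40th percentile of all probe sets (2.64), called the low-value level. With 1 array for each line and concentration the error is what a model of line plus glucose leaves unexplained, moderated over all genes, so the p-values rest on scatter among single arrays, and that scatter may be technical. The targeted gene followed its labels: the TET2 probe set with the highest mean read 9.54 and 9.68 in TET2WT, 7.57 and 7.37 in TET2M, and 3.81 and 4.13 in Mock, with the high glucose array first in each line. Another TET2 probe set did not separate the lines, at 5.15 to 5.41 over the 6 arrays. The remaining TET2 probe set gave the first one's order of lines. It read 6.64 and 6.87 in TET2WT, 4.57 and 3.89 in TET2M, and 2.10 and 2.64 in Mock, there not above the low-value level. In bulk RNA, fewer cells expressing a gene and less RNA per cell cannot be told apart. Of 8 melanocyte lineage markers 7 had a probe set: SOX10, S100B, MITF and PMEL were above the low-value level, and the pigment genes MLANA, TYR and TYRP1 lay below it. MITF, the master regulator of the lineage, was lower in TET2WT than in Mock (-0.60 ± 0.11, adjusted p = 0.0433, limma), and its part in the chemokine differences was not tested. The other tested markers of the list had positive differences, S100B 0.24, PMEL 0.155 and SOX10 0.115, and did not pass. The list median was 0.135.

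CXCL8, interleukin-8, had 6.49 (high glucose) and 7.88 (normal glucose) in TET2WT, 8.58 and 9.62 in TET2M, and 10.73 and 11.56 in Mock. At both concentrations TET2WT read lowest and Mock highest. A second CXCL8 probe set gave the same order, with 3.98 and 5.54 in TET2WT, 6.19 and 7.72 in TET2M, and 8.90 and 9.65 in Mock. CXCL8 was thus lower in TET2WT than in Mock by both probe sets at both concentrations.

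CXCL1, also known as GRO-alpha and first described in melanoma cells as a growth-stimulating activity, read 5.13 and 5.83 in TET2WT, 7.22 and 8.06 in TET2M, and 9.59 and 9.89 in Mock, at high and normal glucose in that order. CXCL2, GRO-beta, read 3.50 and 4.20 in TET2WT, 5.12 and 6.30 in TET2M, and 7.39 and 8.43 in Mock. CXCL3, GRO-gamma, read 3.40 and 3.56 in TET2WT, 4.62 and 4.81 in TET2M, and 6.93 and 7.21 in Mock. In each of these 3 genes TET2WT read lowest and Mock highest at both concentrations. The CXCL2 values come from a probe set of the _x_at kind, in which some probes can match other transcripts, and the 3 GRO mRNAs are close relatives. The CXCL8 probe set with the highest mean is of the _x_at kind as well. The remaining CXCL2 probe sets stayed below the low-value level on all 6 arrays, between 1.98 and 2.61, so the CXCL2 signal cannot be told apart from signal of its relatives.

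CCL2, the monocyte attractant MCP-1, read 5.18 and 5.55 in TET2WT, 6.24 and 6.79 in TET2M, and 8.23 and 8.35 in Mock. Its 3 lines stood in the same order, and it lies on another chromosome than the CXC genes. CCL20 read 3.39 and 3.49 in TET2WT, 4.02 and 4.11 in TET2M, and 4.06 and 4.66 in Mock, so that TET2M and Mock overlapped. CCL20 was the tested member with the smallest range, 1.27, and its mean of 3.96 was the closest above the low-value level.

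CXCL5 and CXCL6, which share the receptors of CXCL8, were close to background on all arrays. The 3 CXCL5 probe sets lay between 1.73 and 2.24, and the CXCL6 probe set between 1.83 and 2.06. The means of their highest probe sets were 2.09 for CXCL5 and 1.98 for CXCL6, below the filter at 2.64. No ordering of lines or concentrations can be read at that level. Their promoters hold the GGAATTTCC string shown above. Probe sets of different genes are not compared in level.

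**Figure D2:**
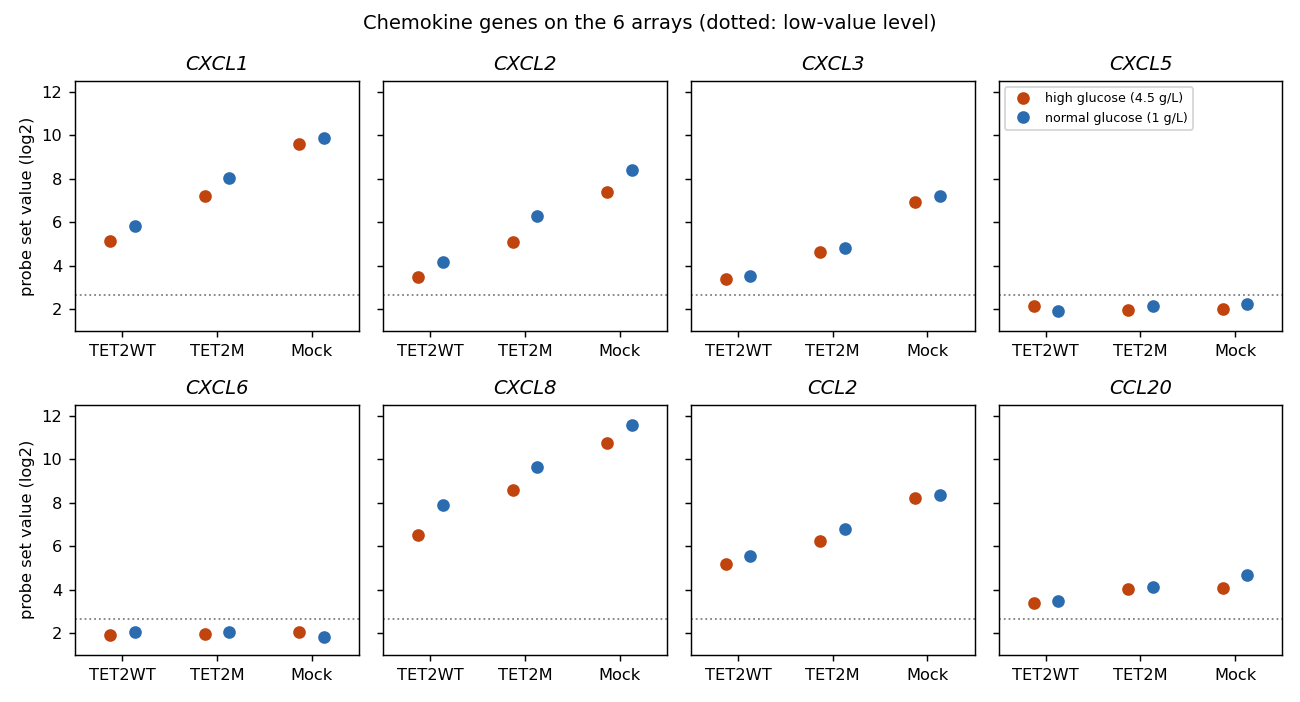
Log2 probe set value of each chemokine gene's probe set with the highest mean, 1 point per array, by line (TET2WT, TET2M, Mock) and glucose concentration; the dotted line is the low-value level of 2.64. CXCL1, CXCL2, CXCL3, CXCL8 and CCL2 step up from TET2WT through TET2M to Mock, CCL20 does so less, and CXCL5 and CXCL6 stay below the level.

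The comparison of TET2WT with Mock asks how the chemokine genes differ between the line overexpressing TET2WT and the Mock line. With 1 line per construct, an effect of the construct and other differences between lines cannot be told apart. CXCL1 was 19.2-fold lower in TET2WT than in Mock (-4.26 ± 0.14), CXCL2 16.7-fold (-4.06 ± 0.13), CXCL8 15.6-fold (-3.96 ± 0.14) and CXCL3 12.04-fold (-3.59 ± 0.089). CCL2 was 7.59-fold lower (-2.93 ± 0.12) and CCL20 1.89-fold (-0.92 ± 0.15). Counted from the lowest difference of all genes tested, CXCL1 ranked 2, CXCL2 3, CXCL8 4, CXCL3 5 and CCL2 10, while CCL20 ranked 113. All 6 tested members were called lower, against 2.2% of all genes tested. This contrast chose the members, so nothing is read from that count. The median difference of the 6 was -3.78, beside -0.010 over all genes. With the mean of all its probe sets CXCL2 stood at -1.40, since its other probe sets were near background. Leaving out 1 array of TET2WT or Mock brought the count to 0, as it did for all 14428 genes, and leaving out 1 of TET2M brought it to 4.

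The comparison of TET2M with Mock used arrays of TET2M that had no part in that contrast, but it shares the Mock arrays with it, so it is given as a description too and without a p-value for a member. CXCL3 was 5.12-fold lower in TET2M than in Mock (-2.36 ± 0.089) and CXCL2 4.59-fold (-2.20 ± 0.13). CXCL1 was 4.29-fold lower (-2.10 ± 0.14), CXCL8 4.13-fold (-2.05 ± 0.14) and CCL2 3.42-fold (-1.78 ± 0.12). All 5 were lower at both concentrations, by between 1.56 for CCL2 and 2.40 for CXCL3 on single pairs of arrays. For CCL20 the difference was -0.29 ± 0.15.

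Of the 6 tested members 5 were called lower, all but CCL20, against 10 or 0.0693% of all genes tested, and nothing is read from this count. The other 5 of the 10 genes were FDCSP, a secreted peptide gene on the same chromosome as the CXC genes, the siderophore-binding lipocalin gene LCN2, the pentraxin gene PTX3, TNFAIP3 and the non-coding LINC01419. The median difference of the 6 tested members was -2.07, beside -0.020 over all genes. The count of 5 came to 1, CXCL3, without glucose in the model, and to 0 with any array left out, which also lowers the residual degrees of freedom. With the mean of its probe sets CXCL2 stood at -0.76 and was not called.

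TET2WT lay below TET2M as well, in a comparison that shares the TET2WT arrays with the one that chose the members and is therefore a description. The difference was -2.16 ± 0.14 for CXCL1, -1.92 ± 0.14 for CXCL8, -1.86 ± 0.13 for CXCL2, -1.24 ± 0.089 for CXCL3, -1.15 ± 0.12 for CCL2 and -0.63 ± 0.15 for CCL20. All but CCL20 were called lower, against 1.43% of all genes, and nothing is read from this count. The count was 3 without glucose in the model, and 0 with any array left out. The difference of TET2M from Mock came to 49.3% of that of TET2WT from Mock for CXCL1, 51.6% for CXCL8, 54.2% for CXCL2, 60.7% for CCL2, 65.6% for CXCL3 and 32.1% for CCL20. The 2 differences in each share are taken against the same Mock arrays.

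**Figure D3:**
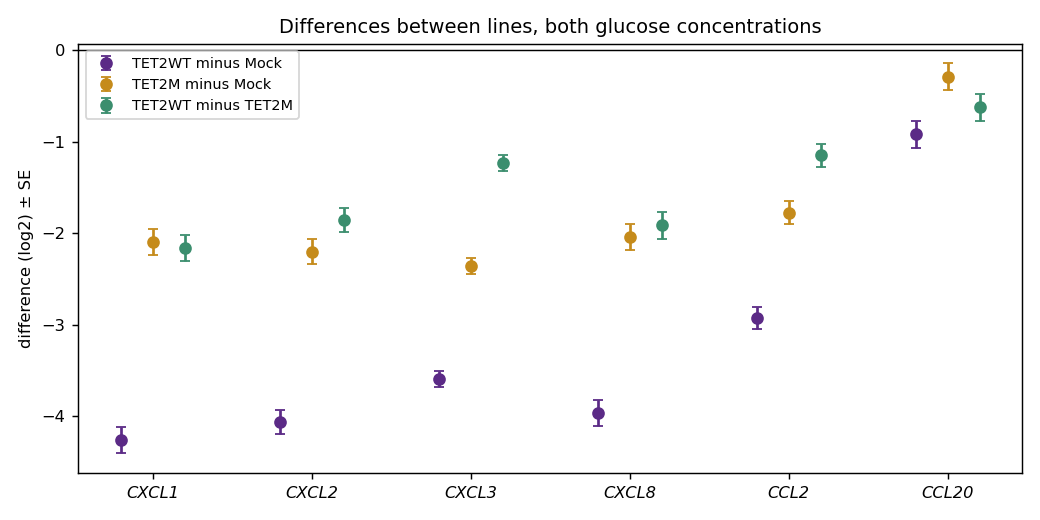
Log2 differences between lines for the 6 tested chemokine genes as the mean over both glucose concentrations, with limma's standard error; purple is TET2WT minus Mock, ochre TET2M minus Mock and green TET2WT minus TET2M. The purple points of CXCL1, CXCL2, CXCL3 and CXCL8 lie between -4.26 and -3.59, and all points of CCL20 lie above -1.

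By a rule set after the values had been seen, a gene was graded where TET2WT lay below TET2M and TET2M below Mock by at least 1 on the log2 scale at each step and at both concentrations. This held for 5 of the 6 tested members and for 7 of all 14428 genes (0.0485%). The other 2 were FDCSP and PTX3. In the opposite direction 1 gene was graded. The members' values chose this rule, so it is a description of how few other genes share their pattern. The order of the lines is the inverse of that of the TET2 probe set above, over 3 lines. The rule itself sets that order for every gene graded this way, so it is no separate result. TET2WT and TET2M differ both in construct and in TET2 level, which cannot be told apart, and a relation to TET2 level was not tested.

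The comparison of high with normal glucose asks which transcripts follow the glucose concentration. In TET2WT, CXCL8 stood lower at high glucose by -1.39, CXCL1 and CXCL2 by -0.70 each, CCL2 by -0.37, CXCL3 by -0.16 and CCL20 by -0.10. In TET2M the differences were -1.18 for CXCL2, -1.04 for CXCL8, -0.84 for CXCL1, -0.55 for CCL2, -0.19 for CXCL3 and -0.09 for CCL20. The Mock differences were -1.04 for CXCL2, -0.83 for CXCL8, -0.60 for CCL20, -0.30 for CXCL1, -0.28 for CXCL3 and -0.12 for CCL2. All 6 tested members thus read lower at high glucose in all 3 lines. The members were known from this contrast, so nothing is read from that count. Of all genes tested 56.2% had a negative mean glucose difference, and the share lower in every line was not counted. CXCL3, which differed strongly between lines, had the smallest mean glucose difference of the 6.

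Over the 3 lines the glucose difference was -1.09 ± 0.12 for CXCL8 (2.12-fold lower at high glucose), -0.97 ± 0.11 for CXCL2 (1.96-fold), -0.61 ± 0.12 for CXCL1, -0.35 ± 0.10 for CCL2, -0.26 ± 0.12 for CCL20 and -0.21 ± 0.073 for CXCL3. In limma 0 of the 6 passed, against 0.00693% of all genes called lower. At an unadjusted p under 0.05 the count was 5 of 6, all lower, beside 8.19% of all genes lower and 15.4% in either direction. The members were known from this contrast, so no p is given for them and nothing is read from these counts. When the prior variance was allowed to follow intensity, 3 members passed, CXCL1, CXCL2 and CXCL8, and so did 573 of all genes, 258 of them lower. By the rule of at least 1.5-fold lower at high glucose in each of the 3 lines, CXCL8 and CXCL2 qualified, as did 0.0832% of all genes. CXCL8 and CXCL2 were known from this contrast, so this is a description and nothing is read from that share.

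A measure of RNA quality also moved with glucose. The 3′ minus 5′ difference of the ACTB control probe sets, which rises as RNA is degraded, was 2.06 (high glucose) and 1.90 (normal glucose) in TET2WT, 1.93 and 1.65 in TET2M, and 2.02 and 1.94 in Mock. Its part in the glucose differences was not tested. The same measure of GAPDH was 0.35 and 0.25 in TET2WT, 0.28 and 0.28 in TET2M, and 0.29 and 0.32 in Mock.

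Whether the glucose response of the members was another one in TET2WT was tested by subtracting the average response of the TET2M and Mock lines. The difference was -0.46 ± 0.15 for CXCL8 and 0.41 ± 0.12 for CXCL2, each with an adjusted p of 0.531 in limma. For CXCL1 it was -0.13 ± 0.30, for CXCL3 0.075 ± 0.11, for CCL2 -0.035 ± 0.25 and for CCL20 0.24 ± 0.29. None of the 6 passed, as for 0.0% of all genes, and 0 of the 6 had an unadjusted p under 0.05 in limma, beside 9.18% of all genes. With 1 residual degree of freedom this model resolves little, and the misses do not show that the lines responded alike.

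**Figure D4:**
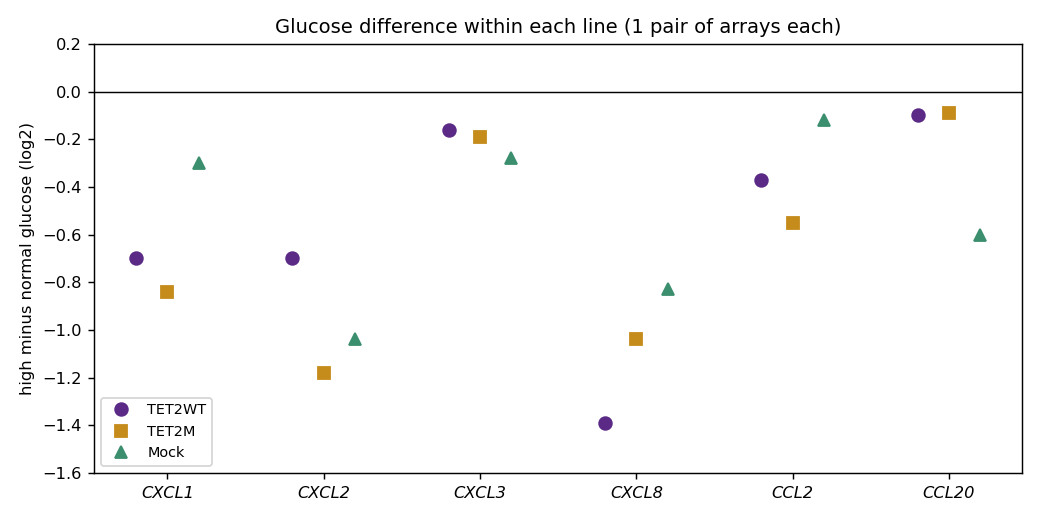
High minus normal glucose on the log2 scale for the 6 tested chemokine genes within TET2WT (circles), TET2M (squares) and Mock (triangles), each from 1 pair of arrays and without an error. The points run from -1.39 for CXCL8 in TET2WT to -0.09 for CCL20 in TET2M.

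Line and glucose together put the 6 arrays in 1 order for most members. From lowest to highest this was TET2WT, then TET2M, then Mock, and within each line high before normal glucose. CXCL1, CXCL2, CXCL3, CXCL8 and CCL2 followed it, and in CCL20 TET2M at normal glucose (4.11) exceeded Mock at high glucose (4.06). Of all genes tested 0.402% had that order and 30 genes had its exact reverse. The order was noticed in the members, so it is a description. Over the 6 arrays the Pearson correlation between 2 tested members ranged from 0.87 for CXCL3 with CCL20 to 0.99 for CXCL3 with CCL2, where the points share arrays and fall into 3 lines.

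The members on chromosome 4 lie in 1 cluster together with other chemokine genes, and genes above and below the low-value level alternate along it. In the order of the reference gene table it runs CXCL8, CXCL6, PF4V1, CXCL1, PF4, PPBP, CXCL5, CXCL3 and CXCL2, leaving out pseudogenes and non-coding genes. CXCL6, PF4V1, PPBP and CXCL5 stayed below the low-value level, with means of 1.98, 1.85, 2.04 and 2.09. PF4, platelet factor 4, had a mean of 2.95 and did not pass between TET2WT and Mock (0.29 ± 0.22, adjusted p = 0.526, limma). The nearest tested genes outside the cluster did not pass either. These differences from Mock in TET2WT were -0.055 for ANKRD17, -0.090 for COX18 and 0.070 for ADAMTS3 on one side, and -0.21 for MTHFD2L, 0.23 for PARM1 and -0.29 for RCHY1 on the other. Beside CCL2 on chromosome 17 the 6 nearest tested genes ranged from -0.18 for ZNF830 to 0.21 for CCT6B, and beside CCL20 on chromosome 2 from -0.26 for SLC19A3 to 0.090 for SP110, without a pass. None of the 18 nearest tested neighbours outside the 3 loci passed, and their differences lay between -0.29 and 0.23. The members were selected on this contrast and the neighbours were not, so the gap between them is not read. Nearest here means nearest among the tested genes, without a limit on distance.

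Other chemokine genes that had a single-gene probe set were mostly near background. Of the 11 remaining CXC genes 6 were tested, and 1 of them, CXCL10, an interferon-induced ligand of CXCR3, was called lower in TET2WT (-0.90 ± 0.12, adjusted p = 0.0167, limma). CXCL10 read 2.58 and 2.52 in TET2WT, 2.39 and 2.68 in TET2M, and 3.46 and 3.43 in Mock, so part of it lies below the low-value level. The median of those 6 was 0.13, beside -0.010 over all genes. Of 29 other chemokines of the CC, XC and CX3C groups 20 had such a probe set and 9 were tested, among them XCL1 (-0.38), CCL28 (0.20) and CCL4 (0.14). Of these 9, 0 passed between TET2WT and Mock in limma, with 0 at an unadjusted p under 0.05 and a median of 0.040. Of 23 chemokine receptor genes 21 had such a probe set and 7 were tested. Of these 7, 0 passed between TET2WT and Mock in limma, with 0 at an unadjusted p under 0.05 and a median of -0.025. The probe sets of CXCR2, CCR2 and CCR6, receptors of the members, lay below the low-value level, and CXCR1 was just above it, from 2.98 to 3.07.

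The NF-kB list held 14 genes, of which 13 were tested. TNFAIP3, which encodes the NF-kB inhibitor A20, read 4.49 and 4.79 in TET2WT, 4.75 and 5.37 in TET2M, and 6.16 and 6.99 in Mock. It was lower in both overexpressing lines than in Mock. In limma the adjusted p was 0.00233 in TET2WT (-1.94 ± 0.14) and 0.0369 in TET2M (-1.52 ± 0.14). NFKBIZ, an NF-kB cofactor, was lower in TET2WT than in Mock (-0.89 ± 0.14, adjusted p = 0.0314, limma). Thus 2 of 13 passed lower in TET2WT and 1 in TET2M, with 0 higher, and the list's medians were -0.28 and -0.20 beside -0.010 and -0.020 over all genes. NFKBIA, the inhibitor IkB-alpha, did not pass in TET2WT (-0.62 ± 0.13, adjusted p = 0.0624, limma), nor did the subunit gene NFKB1 (-0.23 ± 0.14, adjusted p = 0.428, limma).

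Upstream of NF-kB the interleukin-1 genes were highest in TET2WT, where the members were lowest. IL1B read 4.02 and 3.85 in TET2WT, 2.69 and 2.68 in TET2M, and 2.83 and 2.93 in Mock. It was higher in TET2WT than in Mock (1.06 ± 0.10, adjusted p = 0.00701, limma) and than in TET2M (1.25, adjusted p = 0.00408, limma). IL1A read 5.92 and 6.84 in TET2WT, 5.26 and 5.76 in TET2M, and 5.55 and 5.83 in Mock. In TET2WT it passed against TET2M (0.87, adjusted p = 0.0483, limma) but not against Mock (0.69 ± 0.16, adjusted p = 0.0764, limma). Averaged over its probe sets, the difference of IL1A from TET2M was 0.40 and did not pass. With IL17RA, a receptor subunit (0.47 ± 0.090, adjusted p = 0.0491, limma), 2 of the 14 tested genes of interleukin-1, tumour necrosis factor and interleukin-17 signalling were higher in TET2WT than in Mock and 0 lower, with a median of 0.093. The interleukin-1 receptor gene IL1R1 and TNF lay below the low-value level.

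Among 11 genes of AP-1 and C/EBP transcription factors CEBPD was the 1 that passed, higher in TET2WT (0.66 ± 0.096, adjusted p = 0.0224, limma), with FOSL1 at -0.47 and FOS at 0.40 and a list median of 0.11. Averaged over its probe sets, CEBPD stood at 0.32 and did not pass. Of the 9 tested genes that regulate AU-rich mRNAs, the class to which the chemokine mRNAs belong, 0 passed between TET2WT and Mock in limma, with 2 at an unadjusted p under 0.05. In that list ZFP36L1 stood at -0.31, ZFP36L2 at -0.25 and ELAVL1 at -0.18, with a median of -0.090. For all of these lists the background between TET2WT and Mock is 290 genes called higher and 318 lower of 14428, and 20.2% of them with an unadjusted p under 0.05. Between TET2M and Mock TNFAIP3 was the 1 gene of the 7 lists that passed, and for glucose 0 passed in limma, with 0 to 4 genes a list at an unadjusted p under 0.05.

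The genes most like the members were sought by the Pearson correlation with the mean of the 6 tested members' centred profiles, over 6 arrays that fall into 3 lines, among 581 genes with a range of at least 1. The 10 highest, from 0.99 to 0.95, were FABP6, CKB, TNFRSF11B, FDCSP, IL17RD, MMP9, HDAC9, TRIM51, PTX3 and TNFAIP3. MMP9, a gelatinase, read 3.31 and 3.11 in TET2WT, 3.99 and 4.28 in TET2M, and 5.76 and 5.47 in Mock. PTX3 read 5.44 and 5.34 in TET2WT, 7.49 and 7.19 in TET2M, and 8.93 and 8.85 in Mock. FDCSP read 2.23 and 1.88 in TET2WT, both below the low-value level, 5.70 and 5.84 in TET2M, and 8.59 and 8.74 in Mock. FABP6 had the small range of 1.06. Over the 3 lines the mean glucose difference was 0.020 for FDCSP, 0.067 for MMP9, 0.16 for PTX3, -0.58 for TNFAIP3 and -0.35 for HDAC9. FDCSP read lower at high glucose in TET2M and Mock, and higher in TET2WT, where it lay below the low-value level. MMP9 read lower at high glucose in TET2M only.

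**Figure D5:**
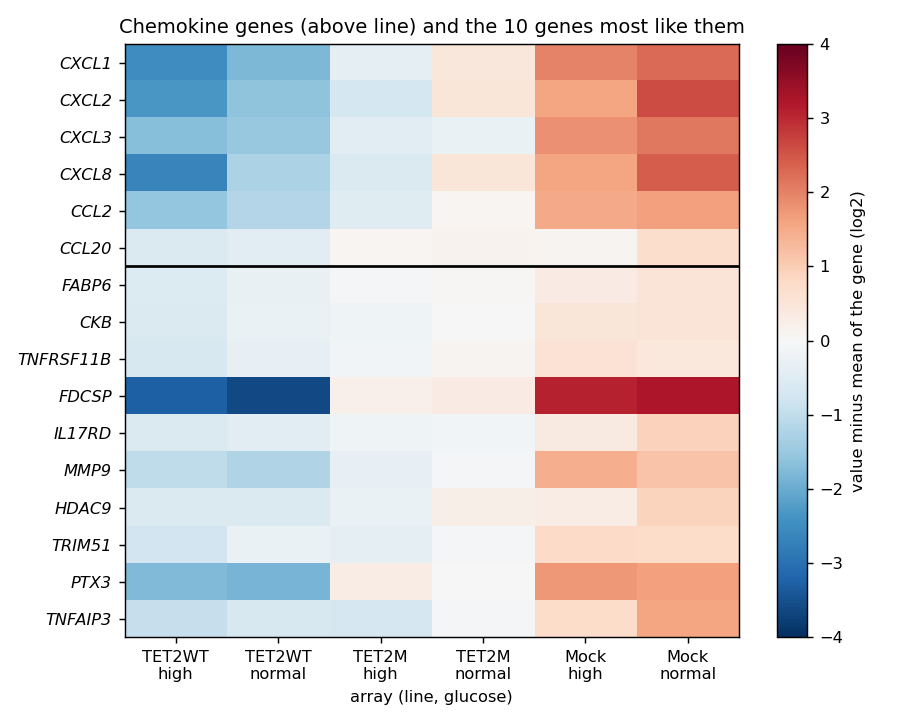
Values of the 6 tested chemokine genes (above the black line) and of the 10 genes whose profiles were most correlated with theirs (below), each minus the gene's own mean on the log2 scale, on the 6 arrays by line and glucose. Blue is below and red above the mean; CXCL1, CXCL2, CXCL8 and FDCSP show the widest steps between TET2WT and Mock.

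Markers of other cell types were measured beside the line differences. Of 7 leukocyte markers PTPRC, CD14, CSF1R and MS4A1 lay below the low-value level. The summed linear level of that list was 84.8 and 75.4 in TET2WT, 81.8 and 76.3 in TET2M, and 112.7 and 109.0 in Mock, and LYZ read 5.64 and 5.39 in TET2WT, 5.65 and 5.43 in TET2M, and 6.35 and 6.21 in Mock. LYZ was lower in TET2WT than in Mock (-0.77 ± 0.088, adjusted p = 0.0116, limma), the 1 pass of that list. Of 4 keratinocyte markers KRT14 was lower in TET2WT than in Mock (-2.40 ± 0.11, adjusted p = 4.42e-04, limma) and KRT1, KRT5 and KRT10 did not pass. The summed linear level of the keratinocyte list was 693.2 and 698.7 in TET2WT, 731.8 and 673.0 in TET2M, and 786.6 and 756.2 in Mock. Of 4 fibroblast markers LUM was lower in TET2WT (-1.06 ± 0.13, adjusted p = 0.0137, limma), the others did not pass, and the sums ran from 55.2 to 62.9 in TET2WT, from 69.2 to 79.1 in TET2M and from 63.6 to 66.4 in Mock. Neither of the 2 tested endothelial markers passed and CDH5 lay below the level, with sums from 36.3 to 38.5 in TET2WT, from 33.8 to 38.2 in TET2M and from 30.9 to 36.1 in Mock. The part of other cell types in the chemokine differences was not tested.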

How the data were processed

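The 6 arrays, 1 for each combination of 3 lines and 2 glucose concentrations, were deposited as log2 probe set values, which the authors made, per the submitters' processing notes, in Affymetrix Expression Console. For its version, summary and background method the entry is: not given in the sources used here. A log2 scale was inferred from the deposited values, which ran from 1.56 to 13.78; the sorted arrays differed by at most 0.12. Array number limits the precision.

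Of 54675 probe sets, 41091 outside the controls had 1 gene symbol, 1801 had several and 11777 none; symbols of 41037 were updated by gene ID with the GRCh38.p14 reference table, and the others kept the annotation's symbol. The probe set with the highest mean stood for a gene, which left 14428 genes at or above the 40th percentile. The differences were fitted with limma 3.58.1 (lmFit, eBayes) in R 4.3.3, with terms for line and glucose (2 residual degrees of freedom, prior 3.97) and, for the response of TET2WT, an added glucose term in that line (1 residual, prior 1.72). Tests were two-sided with Benjamini-Hochberg adjustment over all genes, and were tested on simulated data. Alignments used Biopython 1.88, and figures matplotlib 3.10.9 in Python 3.11.15. The strings searched in promoters were the NF-kB consensus and the 4 given in the text.

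The members, lists and alternatives were chosen with earlier results of these data known. Named were all members, the list genes that passed or had the up to 3 largest differences between TET2WT and Mock, the 10 most correlated genes, and genes next to the members; other genes described beside these were chosen after their values were seen. Alternatives changed the filter, the choice of probe set, the scaling, the variance prior, the model terms and the arrays.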

Additional observations from a re-analysis of the deposited data

How the results depend on the processing

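Under the alternative filters, scalings and variance priors the counts of members that passed stayed within 1.5 times those reported, except for glucose, where 3 passed with an intensity trend in place of 0. Without glucose in the model 1 passed between TET2M and Mock and 3 between TET2WT and TET2M, in place of 5 each. With 1 array left out the count ranged from 0 to 4 between TET2WT and Mock, the 4 with a TET2M array left out, and was 0 between TET2M and Mock, between TET2WT and TET2M, and for glucose. With all TET2WT arrays left out it was 0 between TET2M and Mock, and with all Mock arrays left out 0 between TET2WT and TET2M. These fits keep 1 residual degree of freedom in place of 2, and a line left with 1 array is assumed to vary like the others. The members' called differences kept their direction throughout: CXCL1 ranged from -4.50 to -4.03 in TET2WT and from -2.34 to -1.87 in TET2M against Mock, and CXCL2 from -4.27 to -1.40 and from -2.36 to -0.76, the smallest with the mean of its probe sets. The count of all genes called between TET2M and Mock was 14 as reported, 149 with an intensity trend, 27 with the mean of probe sets, 22 with the 60th percentile as filter and 7 without glucose. For glucose it was 1 as reported, 573 with the trend, 19 with the mean of probe sets, 5 with the stricter filter and with quantile normalization, 3 with cyclic loess and 2 without a filter; between TET2WT and Mock it was 608 as reported, 1528 with the trend and 318 without glucose, and between TET2WT and TET2M 476, 1249 and 267. The cause of the shifts with the trend and without glucose was not tested. The call of IL17RA was lost in 11 of 15 alternatives and that of IL1A between TET2WT and TET2M in 10. Between TET2WT and Mock the call of CEBPD was lost in 9 of 15, that of NFKBIZ in 8 and that of TNFAIP3 in 7. The TNFAIP3 call between TET2M and Mock was lost in 8 of 15. For CXCL10 and IL1B between TET2WT and Mock, and for IL1B between TET2WT and TET2M, it was 7 of 14. The labels carry no replicate numbers, and the model of line and glucose itself pairs the 2 concentrations within each line.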
